A study of Mus musculus with 16 samples.

Results

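The response of male mouse liver to tamoxifen was measured on 8 of the 16 arrays of the series, those of 4 male mice fed tamoxifen and of 4 male mice on the control diet. The arrays were chosen by labelled sex and diet, and no measured value entered the choice. All mice belonged to WSB/EiJ, an inbred strain of wild origin, and were 18 weeks old. They were assigned at random to NIH-31 chow or to the same chow with 420 ppm tamoxifen, and livers were taken and snap-frozen after 12 weeks. The 4 control females of the same strain, age and chow are used as the reference for the female level of a gene. The 4 tamoxifen-fed females serve the test of a difference in effect between the sexes. They also enter the variance in the comparison with control females, and the effect in females is given for Nat8f5. The labels name DNA damage, epigenetic change and transcript levels after tamoxifen as the subject of the study. Adducts were not analysed here.

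Tamoxifen binds oestrogen receptors and blocks or mimics oestrogen depending on the tissue. The liver oxidises it with cytochrome P450 enzymes and flavin monooxygenases and conjugates the products with sulfotransferases and glucuronosyltransferases. In mice many of these enzymes differ between the sexes. Male growth hormone is released in pulses and female growth hormone more evenly, the receptor signals through the kinase JAK2 to the transcription factor STAT5b, and the repressors BCL6 and CUX2 are higher in male and in female liver respectively.

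Levels below are the authors' normalized intensities, in arbitrary units scaled to the 75th percentile of each array, and levels of different genes come from different probes and are not compared. A difference is the mean log2 intensity in tamoxifen-fed males minus that in control males, with its standard error, and n = 4 mice a side throughout. Genes "rose" or "fell" where limma's test over 13487 genes gave a Benjamini-Hochberg adjusted p under 0.05. The first principal component held 71.6% of the variance of the 8 arrays and separated the groups, with control males from -57.0 to -40.7 and tamoxifen-fed males from 39.6 to 52.4. Arrays of the same group correlated at 0.989 to 0.994 across genes and arrays of different groups at 0.953 to 0.968. From 49.7 to 55.3% of the probes were well above background on a male array, and no spot was saturated. Precision is limited by there being 8 male arrays. The Y-linked transcripts Ddx3y, Eif2s3y and Uty were measured on all male arrays and averaged 9.32 to 16.8 units in control females, so the labelled sexes were borne out by these genes.

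Tamoxifen-fed males had 1902 genes higher and 1827 genes lower than control males, which is 14.1% and 13.5% of the genes tested. Counts for every list below are to be read beside these shares. A list whose shares lie near them changed no more often than genes at large. By the fitted difference, 842 of the called genes rose and 401 fell 2-fold or more, and 57 rose and 21 fell 16-fold or more. The called genes included 115 rises below background in control males and 20 falls below background in tamoxifen-fed males. Their fitted sizes rest partly on background signal and can exceed the at-least folds given below. The 2 groups did not overlap for 4392 of the 13487 genes tested, so a lack of overlap was common. The median difference over all genes was -0.074. The balance depended on the scaling of the arrays: 64.1% of the called genes were higher with quantile normalization (2303 higher, 1292 lower) and 69.1% with the array median (1825 higher, 817 lower), against 51.01% here. Small falls are therefore less firm than large ones. These scalings moved the median of all genes to 0.017 and 0.015.

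Most Kupffer cell and endothelial markers rose on the same arrays as the genes described below, while other cell types' markers were mixed. Of 15 Kupffer cell and macrophage markers 13 rose and 1 fell, with a median difference of 1.79. Their summed level ran from 67663 to 104795 units in control males and from 152508 to 222943 in tamoxifen-fed males, with no overlap. Clec4f, a lectin that marks Kupffer cells, read 5822, 8935, 6119 and 9408 units in control males and 28624, 32716, 20827 and 28423 units in tamoxifen-fed males (log2 difference 1.88 ± 0.20, adjusted p = 2.9e-04). Vsig4, a complement receptor of Kupffer cells, and Marco, a scavenger receptor, rose by 1.77 ± 0.18 and 1.75 ± 0.36. Of 17 sinusoidal endothelial markers 12 rose and 0 fell (median 0.61), among them the endocytic receptor Stab2 (0.67 ± 0.14) and the C-type lectin Clec4g (0.68 ± 0.084). Their summed level was 96776 to 120249 in control and 145222 to 162563 in tamoxifen-fed males. Of 11 T and NK cell markers 7 rose and 2 fell, with granzyme A, Gzma, highest (3.09 ± 0.21). Their summed level went the other way, 50718 to 64096 in control and 29069 to 31807 in tamoxifen-fed males with no overlap, and Cd4, which made up most of that sum in control males (48767 ± 5461 units, mean ± SD), fell by 1.32 ± 0.11. Of 8 dendritic cell and monocyte markers 5 rose and 0 fell, including the class II genes H2-Ab1 (2.001 ± 0.24) and Cd74 (1.56 ± 0.17). The summed levels of this list overlapped, 207069 to 252954 in control and 102321 to 248258 in tamoxifen-fed males. Of 19 stellate cell and fibroblast markers 6 rose and 0 fell, among them desmin, Des (1.06 ± 0.18), and the sums overlapped, 161656 to 249837 in control and 210006 to 316906 in tamoxifen-fed males.

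Hepatocyte markers moved less. Of 10 defining genes 0 rose and 5 fell (median -0.39), and with the array median or quantile normalization 1 fell. Albumin, Alb, gave -0.58 ± 0.23, adjusted p = 0.096, and apolipoprotein A1, Apoa1, fell by 0.81 ± 0.10. B cell, neutrophil, cholangiocyte, erythroid and pancreas or fat markers gave 3, 0, 1, 1 and 1 rises and 1, 1, 2, 1 and 1 falls of 4, 4, 10, 7 and 4 tested. The cholangiocyte sum was 48698 to 55082 in control and 19140.1 to 24451 in tamoxifen-fed males, with no overlap, and 19215 to 24296 in control females. The median difference of the cholangiocyte markers was 0.37 and 7 of the 10 were not called, so this sum does not describe most of them. Whole liver RNA was measured, so more or fewer cells of a type and more or less RNA per cell cannot be told apart, and the part of these markers in the other results was not tested.

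**Figure D1:**
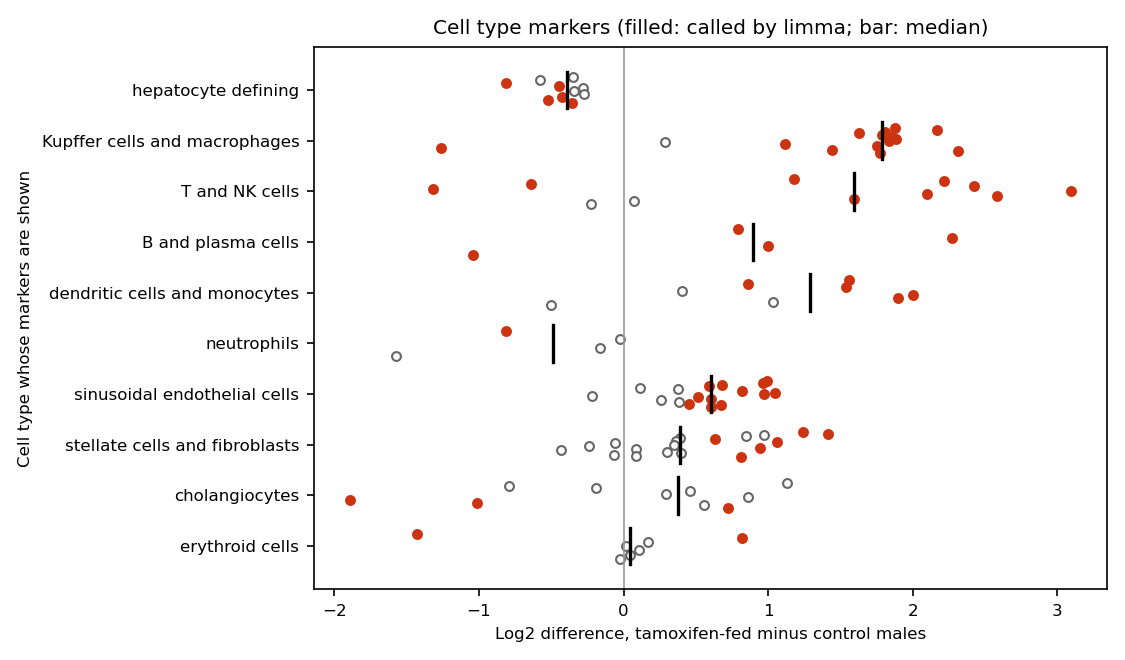
Log2 difference (tamoxifen-fed minus control males, x axis) of every tested marker of 10 cell types (y axis); each point is 1 gene, filled where limma called it, and vertical bars are list medians. Kupffer cell and endothelial markers lie mostly to the right of 0, with medians of 1.79 and 0.61, and hepatocyte markers to the left, with a median of -0.39.

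Genes with known female-biased liver expression rose in tamoxifen-fed males. Of 31 tested, 29 rose and 0 fell, with a median difference of 4.19, or 3.46 with the 7 genes that were below background in control males set to their lower bound. The other members were Prom1, a membrane glycoprotein (0.93 ± 0.34, adjusted p = 0.071), and the neurotrophin receptor Ntrk2 (0.032 ± 0.12, adjusted p = 0.87). Genes with known male-biased liver expression fell: 33 of 37 fell and 0 rose, with a median of -2.07. These lists were chosen with results of these data known.

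The genes with the largest rises and falls of these 2 lists are shown with the 250 bases before their start, from RefSeq (GRCm38.p6), 5′ to 3′ on the gene's strand. Capitals mark TTCNNNGAA, the letters that STAT5 binds, searched on both strands. The largest rises in the lists were Sult3a1 (chr10:33857472-33857721, plus strand) and Sult2a6 (chr7:14254871-14255120, minus strand). The largest falls were Hsd3b5 (chr3:98645535-98645784, minus strand) and Cyp4a12b. No window was available for Cyp4a12b, so it is not shown and was not searched.
Sult3a1: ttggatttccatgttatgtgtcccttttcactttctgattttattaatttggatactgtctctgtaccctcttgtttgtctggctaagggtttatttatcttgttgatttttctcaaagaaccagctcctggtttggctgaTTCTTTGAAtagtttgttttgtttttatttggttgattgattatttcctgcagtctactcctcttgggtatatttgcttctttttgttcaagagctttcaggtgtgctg
Sult2a6: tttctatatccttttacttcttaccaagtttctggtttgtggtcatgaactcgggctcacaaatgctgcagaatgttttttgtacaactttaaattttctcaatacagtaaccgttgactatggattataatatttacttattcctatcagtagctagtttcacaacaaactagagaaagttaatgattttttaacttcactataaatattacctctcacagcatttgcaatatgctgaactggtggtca
Hsd3b5: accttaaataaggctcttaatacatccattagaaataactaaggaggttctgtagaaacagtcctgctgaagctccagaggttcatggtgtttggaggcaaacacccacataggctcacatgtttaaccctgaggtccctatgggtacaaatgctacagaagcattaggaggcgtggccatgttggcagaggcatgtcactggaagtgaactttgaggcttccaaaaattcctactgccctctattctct
The motif was in the Sult3a1 window once, its first base 109 bases before the start, and its letters were not in the windows of Sult2a6 and Hsd3b5. It occurred in 3 of the 24 female-biased genes whose window was searched (12.5%) and in 4 of 27 male-biased genes (14.8%). Beside these stood 814 of 10750 tested genes (7.57%) and 2197 of the 27025 genes searched in total (8.13%). The rest of the 31 female-biased, 37 male-biased and 13487 tested genes were not searched. A match is a description of the letters.

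Among female-biased genes the sulfotransferases had the largest fitted rises. Sult3a1, a sulfotransferase that can act on amines, read 94.8, 12.997, 12.3 and 9.87 units in control males and 197520, 165033, 126754 and 187731 units in tamoxifen-fed males (log2 difference 13.05 ± 0.65, adjusted p = 3.0e-06). Sult2a6, a hydroxysteroid and bile acid sulfotransferase, read 358, 79.6, 89.01 and 37.8 units in control males and 319350, 419613, 273999 and 389930 units in tamoxifen-fed males (log2 difference 11.77 ± 0.58, adjusted p = 3.0e-06). No tamoxifen-fed mouse came near the control range of either gene. Male control 1 had the highest control level of both, and Sult3a1 was well above background on that control array alone, so the fitted sizes rest partly on arrays below background.

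Some P450s and transporters of the female-biased list also differed widely between the groups. Cyp2b13, a steroid-hydroxylating P450, read 10.2, 12.8, 21.96 and 9.59 units in control males and 18569.6, 23742, 15907 and 17927 units in tamoxifen-fed males which is at least 416-fold higher (adjusted p = 1.4e-07), the bound coming from the detection limit of control arrays. Cyp3a44, a drug-oxidising P450, read 348, 599, 338 and 302 units in control males and 88679, 56845, 70416 and 93030.3 units in tamoxifen-fed males (log2 difference 7.63 ± 0.24, adjusted p = 2.7e-07). Slc22a27 and Slc22a26, organic anion transporters, were below background on all 4 control arrays and at least 298-fold and 229-fold higher with tamoxifen. The fatty acid translocase Cd36 (3.29 ± 0.26), the lipoprotein receptor Vldlr (4.31 ± 0.35) and the transcriptional coregulators Tox (2.48 ± 0.40) and Trim24 (2.18 ± 0.13) rose too.

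How far these genes reached towards the female level differed from gene to gene. Tamoxifen-fed males differed from control females in 2139 genes, 15.9% of those tested, with 1134 higher and 1005 lower in the males. Of the 31 female-biased genes 13 were lower than in control females, 0 were higher and 18 did not pass the test. Sult3a1 averaged 169259 ± 31435 (SD) units in tamoxifen-fed males and 237138 in control females (log2 difference from females -0.50 ± 0.52, adjusted p = 0.55). Sult2a6 averaged 350723 ± 66217 and 333422 units (0.069 ± 0.48, adjusted p = 0.94), and Cyp2b10, a phenobarbital-inducible P450, 246339 ± 15519 and 240382 units (0.05 ± 0.40, adjusted p = 0.95). For these 3 genes the test was not passed, which does not show that the levels were equal.

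Other female-biased genes rose and stayed far below the female level. A1bg, a plasma protein of the immunoglobulin family, read 12.1, 9.27, 13.6 and 10.9 units in control males and 1677, 426, 225 and 893 units in tamoxifen-fed males, at least 13.6-fold higher (adjusted p = 1.3e-04). Control females read 176400, 363157, 223967 and 145027 units for A1bg (-8.44 ± 0.51, adjusted p = 3.4e-08). Every tamoxifen-fed male lay above all control males and below all control females for this gene.

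Hao2, a peroxisomal hydroxy acid oxidase, behaved alike. It read 14.6, 12.3, 13.4 and 16.5 units in control males and 341, 73.5, 58.5 and 743 units in tamoxifen-fed males, at least 4.02-fold higher (adjusted p = 0.0066), against 31742, 52797, 28809.7 and 29241 units in control females (-7.57 ± 0.65, adjusted p = 1.9e-06). Cyp17a1, the steroid 17-hydroxylase and lyase, rose by 1.75 ± 0.26 and was lower than in control females (-2.15 ± 0.29). Cyp2a4, a testosterone-hydroxylating P450, rose by 0.50 ± 0.14 and was lower than in control females (-1.69 ± 0.13); the rise did not pass without control mouse 1, 3 or 4 or tamoxifen mouse 4 (adjusted p = 0.051 to 0.074). The Hao2 call was lost with normexp background correction (0.76, adjusted p = 0.11). For Prom1, control females averaged 19581 units and tamoxifen-fed males 575 ± 269 (SD) units (-5.19 ± 0.34, adjusted p = 8.8e-08), and its rise over control males passed without tamoxifen mouse 3 (1.20, adjusted p = 0.019).

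**Figure D2:**
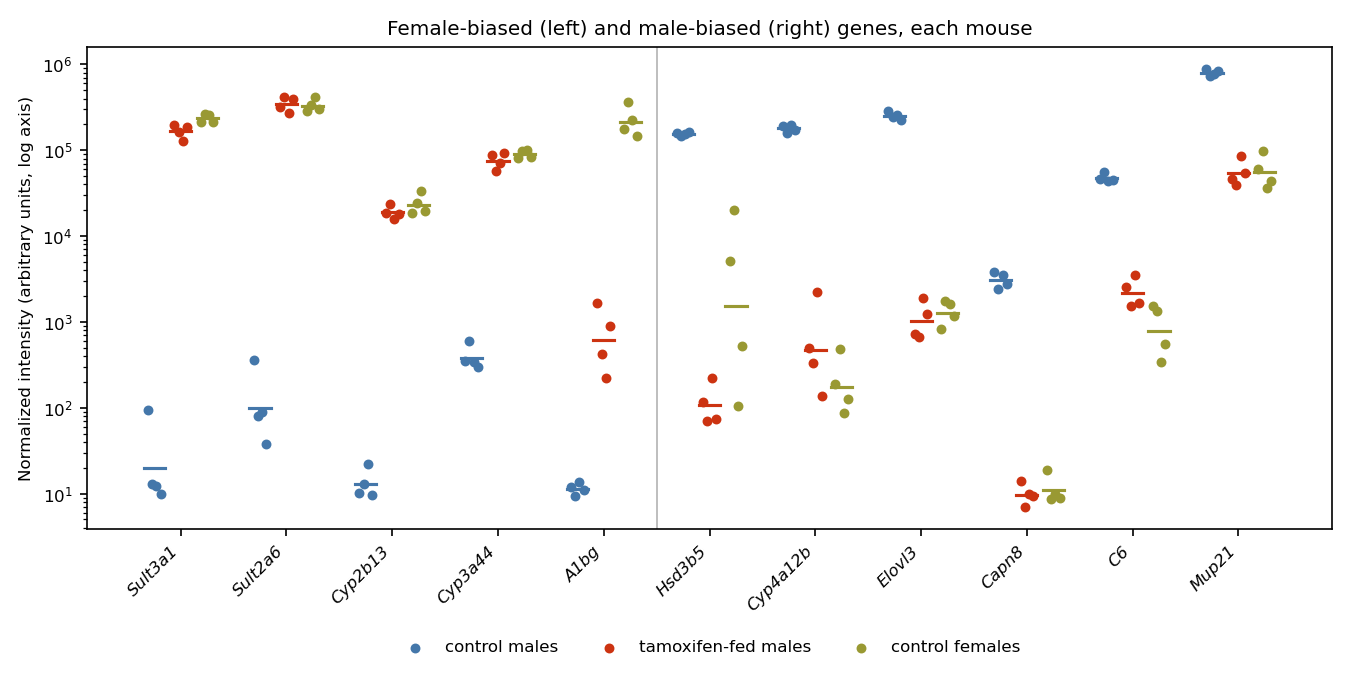
Normalized intensity (log axis, arbitrary units) of 11 sex-biased genes in each control male, tamoxifen-fed male and control female; points are mice and horizontal bars are means of log2 values. In tamoxifen-fed males Sult3a1, Sult2a6, Cyp2b13 and Cyp3a44 overlap the control females, A1bg lies between the other groups, and Hsd3b5, Cyp4a12b, Elovl3, Capn8, C6 and Mup21 lie below every control male.

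The male-biased list was led by enzymes of steroid and fatty acid metabolism. Hsd3b5, a 3-ketosteroid reductase of male liver, read 158176, 145604, 156191 and 164685 units in control males and 117, 70.8, 225 and 73.5 units in tamoxifen-fed males (log2 difference -10.49 ± 0.33, adjusted p = 2.7e-07). Cyp4a12b, a fatty acid omega-hydroxylase, read 190557, 160256, 198728 and 173465 units in control males and 503, 336, 2214 and 136 units in tamoxifen-fed males (log2 difference -8.57 ± 0.70, adjusted p = 5.9e-05), and its close paralog Cyp4a12a, whose probe can bind the same transcript, fell by 8.51 ± 0.66. Elovl3, a fatty acid elongase, read 282512, 243791, 255888 and 222955 units in control males and 719.8, 669, 1909.8 and 1226 units in tamoxifen-fed males (log2 difference -7.92 ± 0.31, adjusted p = 8.5e-07). No tamoxifen-fed mouse reached the control range of any of these genes, and tamoxifen mouse 3 had the highest treated level of Hsd3b5, Cyp4a12b and Elovl3.

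Capn8, a calpain protease, ended below background on all 4 treated arrays and was at least 89.3-fold lower, from 3803, 2415, 3543 and 2778 units in control males to 14.1, 6.95, 9.83 and 9.35 (adjusted p = 1.4e-07). Dkk4, a secreted Wnt inhibitor, fell (-7.55 ± 0.47), Susd4, a complement regulator, (-5.80 ± 0.23), and Hsd3b2 (-5.04 ± 0.34). A second Hsd3b2 probe gave -2.55. Further falls were those of Nox4, an NADPH oxidase (-2.52 ± 0.24), the hedgehog ligand Ihh (-2.94 ± 0.34) and the receptor Egfr (-2.07 ± 0.14). Of the 37 male-biased genes 10 were higher than in control females, 4 were lower and 23 did not pass.

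Hsd3b5 fell past the mean female level. Control females read 5134, 19874, 106 and 523 units, a wide spread that overlapped the tamoxifen-fed males at 1 mouse (males minus females, -3.84 ± 1.13, adjusted p = 0.033). This did not pass without tamoxifen mouse 1, 2 or 4 or female control 1 or 2 (adjusted p = 0.061 to 0.078). Nox4 remained above control females by 2.39 ± 0.31 (adjusted p = 1.1e-04), as did Nat8, an acetyltransferase, which fell by 2.85 ± 0.18 (2.40 ± 0.28 above females, adjusted p = 4.0e-05). Members that did not pass in males included Hsd11b1, which activates glucocorticoids (-0.15 ± 0.13, adjusted p = 0.42), and the growth hormone feedback genes Socs2 (-0.86 ± 0.79, adjusted p = 0.45) and Cish (0.50 ± 1.23, adjusted p = 0.79). Socs2 passed without control mouse 3 (-1.69, adjusted p = 0.029).

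**Figure D3:**
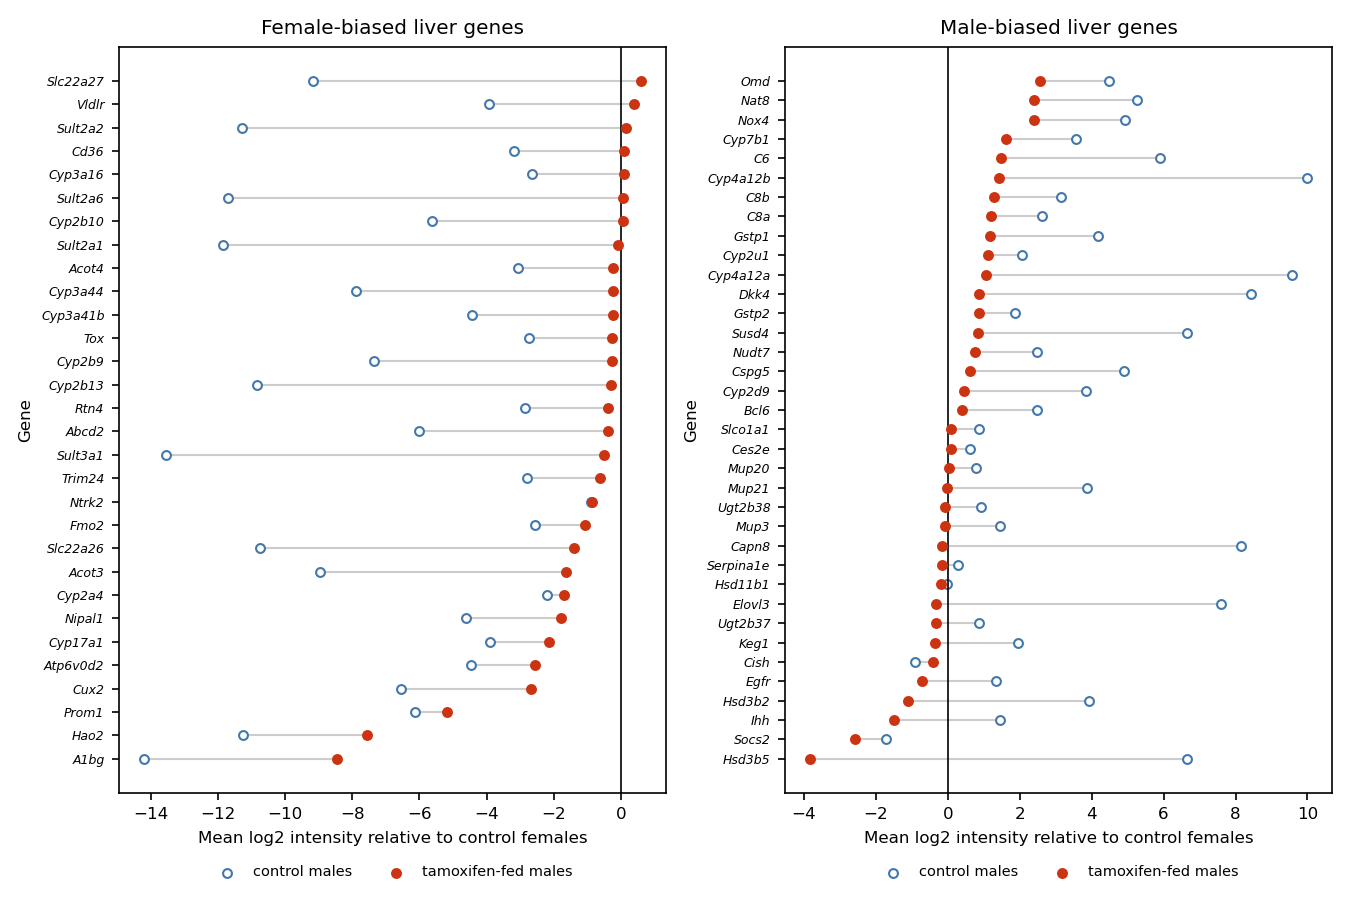
Mean log2 intensity relative to control females (x axis, 0 is the control female mean) for the tested female-biased and male-biased genes (rows; 2 are not shown): open circles are control males and filled circles are tamoxifen-fed males. Over all 31 female-biased genes, shown or not, 13 were lower than control females past the test and 18 did not pass it.

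Of 30 genes of growth hormone signalling 5 rose and 4 fell (median -0.063), shares close to the 14.1% and 13.5% over all genes. Bcl6, the male-biased repressor, read 45408, 24007, 36714 and 14403 units in control males and 8920, 5373, 6211 and 5944 units in tamoxifen-fed males (log2 difference -2.09 ± 0.34, adjusted p = 0.0024), and control females averaged 5044 units. Cux2, the female-biased repressor, read 11.1, 11.6, 12.4 and 10.2 units in control males and 93.1, 237, 173 and 198 units in tamoxifen-fed males, at least 3.67-fold higher (adjusted p = 1.7e-05), against 1029, 704, 1199 and 1466 units in control females (-2.68 ± 0.55, adjusted p = 0.0045). The groups did not overlap for either repressor, as for 4392 of all 13487 genes tested.

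Stat5a, a STAT family transcription factor activated by growth hormone and prolactin, read 8406, 3140.1, 6959 and 4832 units in control males and 16128, 16707, 18727 and 15449 units in tamoxifen-fed males (log2 difference 1.61 ± 0.27, adjusted p = 0.003) and was above control females, which averaged 6344 units (adjusted p = 0.0016). Prlr, the prolactin receptor, rose by 1.93 ± 0.27 and stayed lower than in control females (-0.96 ± 0.24, adjusted p = 0.013). Stat5b (0.29 ± 0.15, adjusted p = 0.18), the growth hormone receptor Ghr (-0.25 ± 0.12, adjusted p = 0.16), Jak2 (0.092 ± 0.13, adjusted p = 0.63) and the hormone Igf1 (0.075 ± 0.099, adjusted p = 0.6) did not pass. Socs3, a cytokine feedback inhibitor, fell (-1.70 ± 0.30) and the pioneer factor Foxa3 (-1.19 ± 0.15). Hnf4a, a hepatocyte transcription factor, gave -0.27 ± 0.13, adjusted p = 0.16, and passed without tamoxifen mouse 2 (-0.39, adjusted p = 0.029). With quantile normalization Stat5b (0.42, adjusted p = 0.040) and Igf1 (0.31, adjusted p = 0.038) passed.

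Of 18 steroid receptor and coregulator genes 1 rose and 1 fell. The oestrogen receptor gene Esr1 read 858, 678, 656 and 845 units in control males and 698, 789, 1085 and 904 units in tamoxifen-fed males, which overlap (log2 difference 0.19 ± 0.16, adjusted p = 0.41). Greb1, an oestrogen-responsive gene in other tissues, rose by 1.57 ± 0.21 and exceeded control females by 1.499 ± 0.22 (adjusted p = 3.1e-04). A second, dimmer Greb1 probe gave 7.30. The call that fell, Esr2 (-0.32 ± 0.1), was lost with the array median (-0.23, adjusted p = 0.45), with quantile normalization (-0.26, adjusted p = 0.097) and when any single mouse other than tamoxifen mouse 1 was left out (adjusted p = 0.054 to 0.10).

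Of 19 genes of the sulfotransferase system, Sult3a1 and Sult2a6 included, 13 rose and 3 fell (median 1.31). Sult3a1, Sult2a6, Sult2a1 and Sult2a2 are also counted among the female-biased genes above. The hydroxysteroid sulfotransferases Sult2a1 (11.75 ± 0.69), Sult2a2 (11.41 ± 0.45) and Sult2a4 (11.49 ± 0.62) belong to a family of near-identical sequences, and a probe for one may pick up RNA of the others. Sult3a2 and Sult2a3 were below background on all control arrays and at least 321-fold and 207-fold higher. Papss2, which makes the sulfate donor, rose by 1.31 ± 0.11 and the oestrogen sulfotransferase Sult1e1 by 1.15 ± 0.22. Sult2a7 (-2.18 ± 0.24), Sult2a8 (-0.65 ± 0.10) and Sult4a1 (-0.84 ± 0.12) fell. Another Sult2a6 probe gave 3.86, so the size of that rise depends on the probe. Papss1, the second donor synthase, gave -0.27 ± 0.15, adjusted p = 0.22.

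The P450s of families 1 to 3 oxidise drugs and steroids. Of 53 genes, electron donors included, 16 rose and 17 fell. All 3 Cyp2b genes rose (Cyp2b9 by 7.07 ± 0.53 and Cyp2b10 by 5.66 ± 0.47), as did the Cyp3a genes Cyp3a41b (4.19 ± 0.22), Cyp3a16 (2.76 ± 0.26) and Cyp3a11 (1.93 ± 0.25). Cyp3a25 and Cyp3a57 fell (-1.17 ± 0.19 and -1.06 ± 0.18). In the Cyp2c subfamily Cyp2c37 (2.80 ± 0.22), Cyp2c39 (1.495 ± 0.24), Cyp2c50 (0.81 ± 0.14) and Cyp2c54 (0.70 ± 0.11) rose, and the female-level genes Cyp2c67 (0.058 ± 0.24, adjusted p = 0.87) and Cyp2c68 (0.38 ± 0.30, adjusted p = 0.37) did not pass. A second Cyp2c37 probe gave 1.44. Control females averaged 647351 units of Cyp2c67 and tamoxifen-fed males 161984 ± 44734 (SD) units (adjusted p = 8.7e-04).

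Members of the Cyp2d subfamily fell. Cyp2d9, a testosterone hydroxylase of male liver, fell (-3.38 ± 0.17), Cyp2d11 (-1.70 ± 0.13), Cyp2d40 (-1.69 ± 0.17), Cyp2d12 (-1.30 ± 0.17), Cyp2d22 (-0.89 ± 0.13), Cyp2d34 (-0.84 ± 0.23) and Cyp2d10 (-0.62 ± 0.098), while Cyp2d26 gave -0.082 ± 0.19, adjusted p = 0.77. With quantile normalization Cyp2d10 (-0.24, adjusted p = 0.063) and Cyp2d34 (-0.68, adjusted p = 0.063) did not pass, nor did Cyp2d34 without control mouse 1 or 4 (adjusted p = 0.065 and 0.066). A second Cyp2d34 probe fell by 4.62 (adjusted p = 6.5e-06), so the size of that fall depends on the probe. The largest fall among these families was that of Cyp2f2, a P450 of periportal hepatocytes that oxidises small aromatic compounds. It read 795196, 729053, 732378 and 716238 units in control males and 38058, 53980.1, 57928 and 37284 units in tamoxifen-fed males (log2 difference -4.02 ± 0.16, adjusted p = 8.5e-07), and control females at 231366, 314671, 183124 and 201891 units lay between the male groups (tamoxifen-fed males lower (-2.31 ± 0.20), adjusted p = 1.6e-06). Cyp1a2, which oxidises aromatic amines, fell by 1.33 ± 0.13, Cyp1a1 gave 0.17 ± 0.22, adjusted p = 0.6, and Por, the reductase that supplies P450s with electrons, rose by 0.54 ± 0.14, a call lost without control mouse 3 or 4 or tamoxifen mouse 4 (adjusted p = 0.050 to 0.058).

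**Figure D4:**
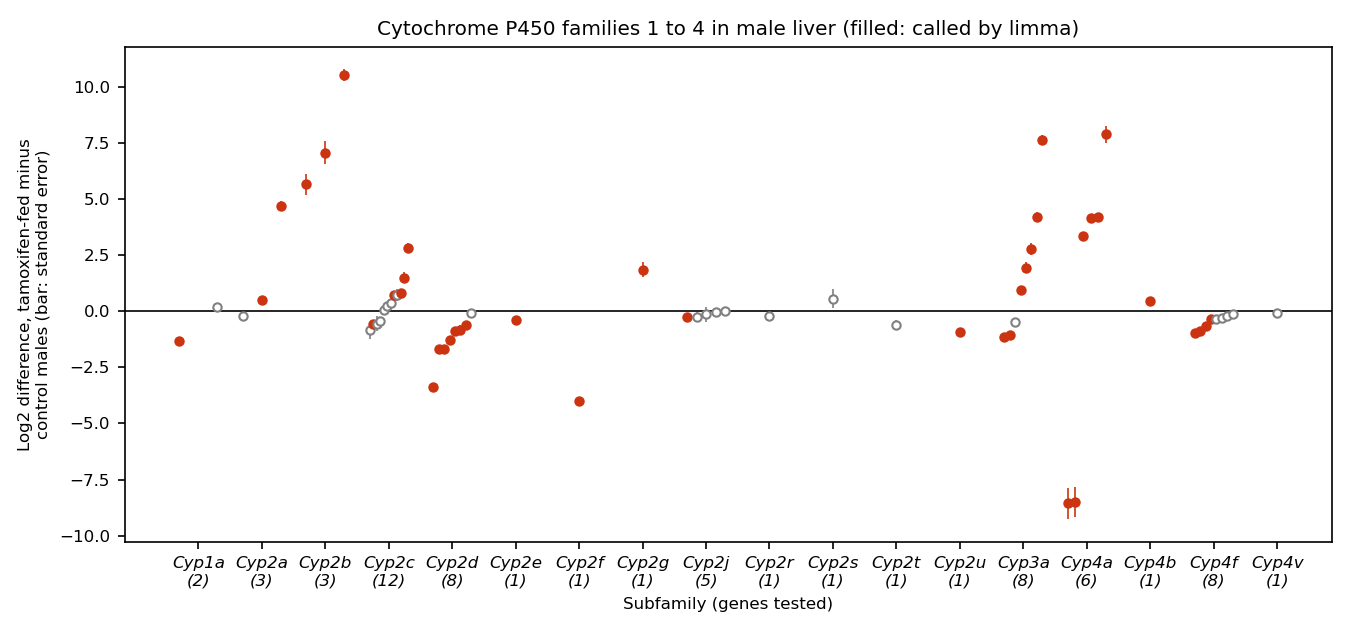
Log2 difference (tamoxifen-fed minus control males, y axis) of the tested P450 genes of families 1 to 4, grouped by subfamily on the x axis; points are genes with their standard errors, filled where limma called the change. The Cyp2b points are all higher than 0 and the Cyp2d points all lower, while Cyp3a and Cyp4a hold genes on both sides.

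Known targets of the xenobiotic receptors CAR and PXR also went both ways, with 14 of 31 higher and 8 lower. Besides the P450s, Abcb1a, which encodes a drug efflux pump, read 93.7, 248, 160.1 and 226 units in control males and 4011, 6249, 4773 and 5355 units in tamoxifen-fed males (log2 difference 4.88 ± 0.30, adjusted p = 9.8e-06), and its paralog Abcb1b rose by 3.78 ± 0.24. Slco1a4, an organic anion importer, rose by 3.28 ± 0.41 and Gadd45b, a stress sensor, by 2.08 ± 0.43. The hydrolase Ephx1 fell (-1.91 ± 0.15) and the retinal dehydrogenase Aldh1a1 (-0.87 ± 0.10). Of 8 targets of the dioxin receptor 1 rose, the quinone reductase Nqo1 (0.60 ± 0.094), and 1 fell, Cyp1a2, beside 14.1% and 13.5% over all genes.

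Of 14 glucuronidation genes 8 fell and 1 rose: Ugt2b1 fell (-1.93 ± 0.086), Ugt2b35 (-1.59 ± 0.13) and Ugdh, which makes the glucuronic acid donor, (-1.32 ± 0.13), while Ugt2a3 rose by 0.44 ± 0.10, a call lost with the array median (adjusted p = 0.058). Of 14 carboxylesterases 8 fell and 1 rose, with Ces4a (-2.37 ± 0.36), Ces2b (-2.29 ± 0.49) and Ces3b (-2.09 ± 0.20) lowest and Ces1g (0.69 ± 0.19) higher; Ces1g did not pass without control mouse 1 or 2 or tamoxifen mouse 1, 2 or 4 (adjusted p = 0.061 to 0.077). Of 8 flavin monooxygenases and aldehyde oxidases 4 rose and 3 fell. Aldehyde oxidases Aox3 and Aox1 fell (-3.18 ± 0.20 and -1.49 ± 0.14), and Fmo5 (-0.63 ± 0.14), whereas Fmo2 (1.48 ± 0.28), Fmo4 (1.13 ± 0.29) and Fmo1 (0.82 ± 0.14) rose. Fmo4 did not pass without tamoxifen mouse 1 or 4 (adjusted p = 0.055 and 0.050), and Fmo5 did not with the array median (-0.54, adjusted p = 0.090) or quantile normalization (-0.32, adjusted p = 0.12).

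Of 28 glutathione genes 9 fell and 5 rose. Gstp1, the pi-class transferase that is higher in male liver, read 658484, 552441, 590070 and 514486 units in control males and 55937, 79484, 90836 and 66492 units in tamoxifen-fed males (log2 difference -3.001 ± 0.16, adjusted p = 4.0e-06) and stayed above control females, which averaged 32105 units (adjusted p = 4.4e-05). Gstm6 (-1.44 ± 0.16), Gstm4 (-1.05 ± 0.17), Gstm3 (-0.9998 ± 0.21) and Gstm1 (-0.86 ± 0.099) of the mu class fell, and a second Gstm3 probe gave -2.56. The theta class went the other way, with Gstt3 higher by 1.26 ± 0.12 and Gstt1 by 1.02 ± 0.15, as was the microsomal Mgst3 (1.44 ± 0.15). Of 32 targets of the oxidant sensor NRF2 8 rose and 9 fell. The haem oxygenase Hmox1 gave 0.22 ± 0.12, adjusted p = 0.2, and Gclc, which limits glutathione synthesis, -0.25 ± 0.12, adjusted p = 0.15.

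All 10 major urinary protein genes tested fell (median -1.14). Mup21 read 885062, 740647, 762533 and 833919 units in control males and 45993, 39579.5, 85712 and 54974 units in tamoxifen-fed males (log2 difference -3.89 ± 0.22, adjusted p = 5.9e-06), and control females read 59828, 98554, 36444 and 43209 units, overlapping the tamoxifen-fed males. Mup5 (-2.74 ± 0.12), Mup6 (-2.69 ± 0.39) and Mup2 (-1.93 ± 0.14) fell too. At the probes used, Mup19, Mup4, Mup18, Mup17 and Mup20 gave differences from -0.74 to -0.34, but second probes gave -4.25 for Mup4 (adjusted p = 4.0e-05) and -2.86 for Mup20 (adjusted p = 2.9e-06), so no order of the falls is given. With the array median or quantile normalization 6 of the 10 were called, and Mup19 turned to 0.022 with the latter (adjusted p = 0.86). Leaving out single mice ended the calls of Mup19 (without any but control mouse 3 or tamoxifen mouse 3, adjusted p = 0.059 to 0.10) and Mup4 (without control mouse 1 or 4 or tamoxifen mouse 1, adjusted p = 0.052 to 0.055). These genes are near-identical copies, so their probes share transcripts.

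Steroid-converting enzymes fell more often than they rose, 10 against 4 of 29. Besides Hsd3b5 and Hsd3b2, Hsd3b6 (-1.69 ± 0.17) and Hsd3b3 (-1.498 ± 0.13) fell, while Hsd3b7 of bile acid synthesis gave 0.049 ± 0.14, adjusted p = 0.82. Akr1c18, a progesterone-inactivating reductase, rose by 2.13 ± 0.17. The 5-alpha reductase Srd5a1 gave 0.29 ± 0.16, adjusted p = 0.21.

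Of 40 hepatic transporters 16 rose and 9 fell. Slc22a29 was at least 74.8-fold higher, from below background on every control array. The basolateral exporters Slc51b (2.11 ± 0.38) and Abcc3 (1.15 ± 0.23) rose. The organic cation exporter Slc47a1 rose by 1.38 ± 0.11 and the phospholipid flippase Abcb4 by 0.63 ± 0.14. Abcg2, an apical efflux pump, fell (-1.94 ± 0.11), the anion importer Slc22a7 (-1.68 ± 0.26) and the prostaglandin importer Slco2a1 (-1.10 ± 0.22). The bile salt importer Slc10a1 (-0.22 ± 0.11, adjusted p = 0.17) and exporter Abcb11 (-0.52 ± 0.30, adjusted p = 0.24) did not pass.

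Bile acid synthesis genes fell in 7 and rose in 3 of 21 cases. Cyp7a1, the rate-limiting enzyme, read 2035, 4438, 494 and 3692 units in control males and 475, 1277, 455 and 1444 units in tamoxifen-fed males, which overlap (log2 difference -1.34 ± 0.71, adjusted p = 0.19), and it passed without control mouse 3 (-2.02, adjusted p = 0.021). Cyp8b1, the sterol 12-hydroxylase, fell by 1.02 ± 0.25, and Cyp39a1, an oxysterol 7-hydroxylase, rose by 3.57 ± 0.26. Klb, the co-receptor for the gut hormone FGF15, rose by 1.26 ± 0.17.

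Of 27 genes of cholesterol synthesis and uptake 7 fell, 0 rose and 20 did not pass, beside 13.5% that fell over all genes (median -0.34). Set against control females, 17 of the 27 were lower in tamoxifen-fed males and 0 higher, beside 1005 lower of all 13487 genes. Control females already exceeded control males by a median of 0.68 in this list, so that count also holds the difference between the untreated sexes. Sqle, squalene epoxidase, read 10736, 1996, 22549.6 and 7415 units in control males and 2289, 729.6, 1641 and 1527 units in tamoxifen-fed males (log2 difference -2.44 ± 0.68, adjusted p = 0.028), and the groups overlap. Its call was lost without control mouse 1, 3 or 4 or tamoxifen mouse 2 or 4 (adjusted p = 0.052 to 0.071). Tm7sf2 (-0.90 ± 0.17) and Fdft1 (-0.81 ± 0.13) of the same pathway fell. The count of falls in this list ran from 2 to 12 when single mice were left out.

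Fatty acid oxidation genes and targets of the receptor PPARalpha rose in 17 and fell in 6 of 47 cases. The omega-hydroxylase Cyp4a14 read 205, 314, 246 and 298 units in control males and 38849, 110996, 34059 and 99284 units in tamoxifen-fed males (log2 difference 7.88 ± 0.39, adjusted p = 3.0e-06), and its paralogs Cyp4a10 (4.19 ± 0.12), Cyp4a31 (4.15 ± 0.12) and Cyp4a32 (3.33 ± 0.18) rose, opposite to Cyp4a12a and Cyp4a12b. Another Cyp4a31 probe gave 1.68. Ehhadh, a peroxisomal beta-oxidation enzyme, read 43186, 63547, 43448 and 52446 units in control males and 286560, 329023, 292934 and 247561 units in tamoxifen-fed males (log2 difference 2.52 ± 0.15, adjusted p = 8.1e-06). Control females averaged 56539 units, so tamoxifen-fed males lay above both control groups for Ehhadh (2.36 ± 0.14 against females, adjusted p = 2.5e-08).

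Vnn1, a pantetheinase (3.62 ± 0.14), the kinase Pdk4 (2.16 ± 0.20) and the hormone Fgf21 (1.78 ± 0.31) rose as well, and the peroxisomal transporter Abcd2 was at least 11.03-fold higher. Acsl1 and Acsl4, which activate long-chain fatty acids, fell (-1.03 ± 0.11 and -1.21 ± 0.20) and catalase, Cat, (-0.73 ± 0.16). Ppara itself gave 0.15 ± 0.16, adjusted p = 0.52. Acyl-CoA thioesterases, which release free fatty acids, rose in 8 and fell in 0 of 13 cases, with Acot3 (7.30 ± 0.31), Acot5 (3.97 ± 0.25), Acot2 (3.81 ± 0.22) and Acot1 (3.42 ± 0.22) highest. A second Acot5 probe gave -0.19 (adjusted p = 0.30).

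Of 30 lipogenic genes 8 rose and 3 fell. Thrsp, a regulator of lipogenesis (1.54 ± 0.22), the elongase Elovl6 (1.48 ± 0.18) and fatty acid synthase, Fasn (0.99 ± 0.13, adjusted p = 7.6e-04), rose. Elovl1 (-1.87 ± 0.22) and the acetate-activating enzyme Acss2 (-1.08 ± 0.16) fell. The desaturase Scd1 gave 0.9997 ± 0.39, adjusted p = 0.086, and passed without control mouse 2 (1.34, adjusted p = 0.014) and with the array median (1.09, adjusted p = 0.045). Among lipid droplet genes the lipase inhibitor G0s2 fell by 1.95 ± 0.43 and Plin5 rose by 0.64 ± 0.16. Lrp2, an endocytic lipoprotein receptor, fell by 3.92 ± 0.46.

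Of 25 genes of glucose metabolism 1 rose and 5 fell (24% called), beside 14.1% that rose and 13.5% that fell over all genes. The glycogen-targeting subunit Ppp1r3g rose by 2.82 ± 0.85 and the lactate dehydrogenase subunit Ldhb fell by 0.78 ± 0.13. Ppp1r3g did not pass without control mouse 1 or 2 or tamoxifen mouse 1, 2 or 4 (adjusted p = 0.053 to 0.088), or with normexp background correction (1.18, adjusted p = 0.095). Of 33 amino acid and urea genes 2 rose and 8 fell, with serine dehydratase, Sds, higher by 1.13 ± 0.25 and glutamine synthetase, Glul, lower (-1.17 ± 0.18). Glul marks the hepatocytes around the central vein. Of 19 pericentral markers 8 fell and 4 rose, and of 19 periportal markers 4 fell and 2 rose.

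In one-carbon metabolism, which supplies methyl groups, 3 of 33 genes rose and 5 fell. Pemt, which methylates phosphatidylethanolamine to phosphatidylcholine, read 83418, 78876, 79846 and 95659.7 units in control males and 18143, 16483, 17236 and 19311 units in tamoxifen-fed males (log2 difference -2.24 ± 0.098, adjusted p = 1.4e-06). Control females averaged 109751 units of Pemt, above both male groups. Cbs, of transsulfuration, rose by 0.72 ± 0.15, and Shmt2, the mitochondrial serine hydroxymethyltransferase, fell by 0.50 ± 0.08, a call lost with the array median (-0.41, adjusted p = 0.11).

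Of 65 genes of DNA methylation and histone modification 12 fell and 2 rose, and with the array median 4 fell. The methyl-CpG binder Mbd1 fell (-1.41 ± 0.18), the histone demethylases Kdm5b and Kdm4a (-1.26 ± 0.17 and -0.85 ± 0.20), and the DNA methyltransferase Dnmt3b (-0.77 ± 0.14). Dnmt3a gave -0.067 ± 0.14, adjusted p = 0.74, and the maintenance methyltransferase Dnmt1 0.13 ± 0.094, adjusted p = 0.32.

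Of 56 DNA repair genes 3 were higher and 6 lower, beside 14.1% and 13.5% over all genes, and with the array median 0 were lower. Rad51b, a recombination factor, read 339.5, 679, 212 and 510.2 units in control males and 6371, 5962, 4072 and 6265 units in tamoxifen-fed males (log2 difference 3.81 ± 0.34, adjusted p = 9.4e-05), without overlap. The alkyl repair enzyme Mgmt gave 0.25 ± 0.17, adjusted p = 0.32, and the nucleotide excision gene Xpc -0.014 ± 0.081, adjusted p = 0.92.

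Of 32 p53 targets and damage response genes 7 rose and 5 fell, beside 14.1% and 13.5% over all genes. Gdf15, a stress cytokine, read 3607, 4448, 15086 and 4419 units in control males and 115883, 106588, 123786 and 47307 units in tamoxifen-fed males (log2 difference 4.01 ± 0.48, adjusted p = 5.1e-04). Male control 3 had the highest control level and tamoxifen mouse 4 the lowest treated level, and the groups do not overlap. The apoptosis genes Pmaip1 (1.41 ± 0.18) and Bbc3 (-1.40 ± 0.34), both p53 targets, moved in opposite directions. Cdkn1a, which encodes the p53-induced cell cycle inhibitor p21, gave -0.38 ± 0.27, adjusted p = 0.33, the p53 inhibitor Mdm2 -0.25 ± 0.12, adjusted p = 0.16, and Trp53 itself -0.45 ± 0.11, adjusted p = 0.018. The Trp53 call was lost with the array median (-0.36, adjusted p = 0.23), with quantile normalization (-0.40, adjusted p = 0.058) and without tamoxifen mouse 4 (-0.39, adjusted p = 0.054), and that of Pmaip1 with normexp background correction (0.24, adjusted p = 0.11).

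Of 36 cell cycle genes 4 rose and 4 fell, shares not above the 14.1% and 13.5% over all genes. Cyclin D1, Ccnd1, rose by 2.20 ± 0.43, to 12099.7 ± 3995 (SD) units beside 12151 in control females. The mitotic genes Ccnb1 (-2.004 ± 0.40) and Cdc20 (-1.90 ± 0.47) fell. The proliferation marker Mki67 gave -0.51 ± 0.64, adjusted p = 0.58 and the replication clamp Pcna 0.11 ± 0.084, adjusted p = 0.37.

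Acute phase and inflammation genes fell in 13 and rose in 3 of 34 cases. The chemokine Cxcl1 read 18208, 42178, 2146 and 27182 units in control males and 1364, 844, 1518 and 547 units in tamoxifen-fed males (log2 difference -3.88 ± 0.84, adjusted p = 0.0096), and male control 3 lay close to the treated mice. The metallothioneins Mt1 and Mt2 fell (-1.94 ± 0.44 and -2.51 ± 0.47), the amyloid protein Saa2 (-2.19 ± 0.60) and the interleukin receptor Il1r1 (-1.71 ± 0.28). Hamp2 (2.20 ± 0.53), the interleukin-1 antagonist Il1rn (1.95 ± 0.21) and Il1b (1.46 ± 0.31) rose. Saa1 gave -2.06 ± 0.78, adjusted p = 0.082. Saa2 did not pass without control mouse 1, 2 or 4 or tamoxifen mouse 1, 3 or 4 (adjusted p = 0.055 to 0.072), and Saa1 passed without tamoxifen mouse 2 (-2.89, adjusted p = 0.0031).

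Interferon response genes rose in 9 and fell in 5 of 36 cases. Cxcl9 (1.94 ± 0.35) and the guanylate-binding proteins Gbp3 (1.88 ± 0.18) and Gbp2 (1.29 ± 0.23) rose, and Stat2 fell by 0.67 ± 0.15. With the array median 0 genes of this list fell, Stat2 included (-0.58, adjusted p = 0.073).

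Of 41 complement and coagulation genes 8 rose, 3 of them C1qa, C1qb and C1qc, the macrophage-made chains of C1q (1.81 ± 0.17, 1.63 ± 0.14 and 1.79 ± 0.17), which are also among the Kupffer cell markers above. Of the 14 that fell, components of the terminal pathway were lowest: C9 (-4.88 ± 0.32), C6 (-4.43 ± 0.25), C8b (-1.88 ± 0.20) and C8a (-1.41 ± 0.18). C6, C8b and C8a are also counted among the male-biased genes above. C6 read 46302, 55830.5, 43906 and 45047 units in control males and 2568, 1533, 3544 and 1680.3 units in tamoxifen-fed males, with no overlap, and control females averaged 943 units. The other rises were those of complement factor D, Cfd (3.49 ± 0.40), properdin, Cfp (1.65 ± 0.16), tissue factor, F3 (1.80 ± 0.16), the kallikrein Klkb1 (0.42 ± 0.13) and the factor XIII chain F13b (0.25 ± 0.079). The last calls ended with the array median (adjusted p = 0.071 for Klkb1 and 0.21 for F13b) and when any of 7 mice was left out for Klkb1 (adjusted p = 0.067 to 0.11) or any of 8 for F13b (adjusted p = 0.059 to 0.11).

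Of 27 endoplasmic reticulum and integrated stress genes 7 fell and 1 rose. Asparagine synthetase, Asns, fell (-2.30 ± 0.24) and the chaperone cofactor Sdf2l1 (-1.02 ± 0.21), while the chaperone Hspa5 gave -0.75 ± 0.34, adjusted p = 0.13. Of 18 clock genes 0 rose and 2 fell, and Per2 (-1.03 ± 0.34, adjusted p = 0.051) and Dbp (-0.44 ± 0.25, adjusted p = 0.21) did not pass. Per2 passed without control mouse 4 (-1.24, adjusted p = 0.032) or tamoxifen mouse 1 (-1.23, adjusted p = 0.039). Of 18 fetal liver or preneoplasia markers 8 rose and 3 fell. Alpha-fetoprotein, Afp, read 937, 1697, 1212 and 1457 units in control males and 4550, 5082, 5992 and 5907 units in tamoxifen-fed males (log2 difference 2.05 ± 0.19, adjusted p = 1.1e-04) and was above control females, at 887, 1046, 1674 and 950.2 units (adjusted p = 1.8e-06). The surface protein Ly6d rose by 3.39 ± 0.44, while Gstp1, described above and also in this list, was its lowest member (-3.001).

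**Figure D5:**
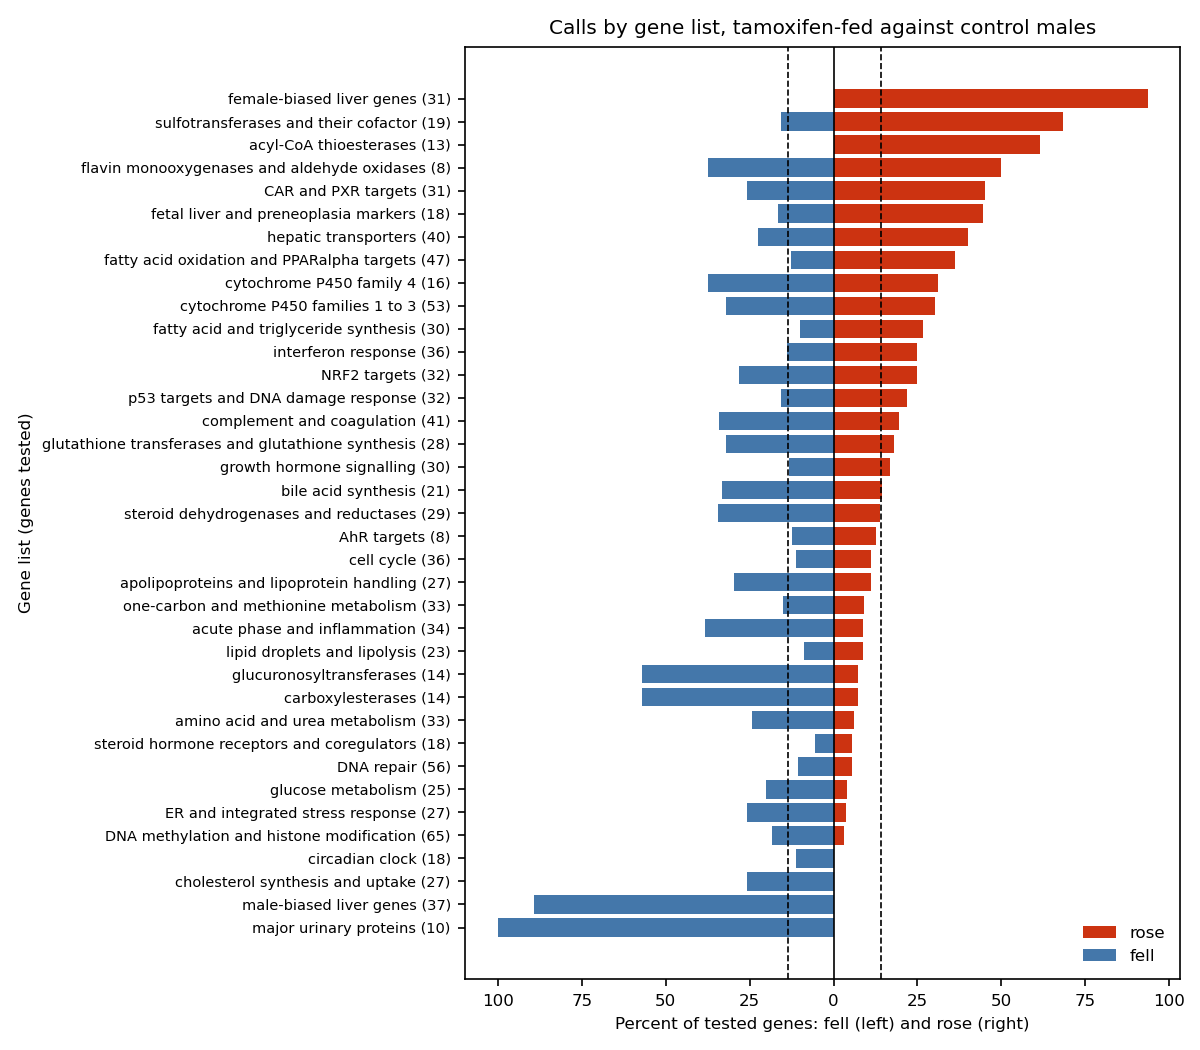
Percent of the tested genes of each list that rose (right of 0) and fell (left of 0) in tamoxifen-fed males, with the number tested beside each list name; dashed lines mark the shares over all genes tested, 14.1% and 13.5%. Female-biased genes, acyl-CoA thioesterases and sulfotransferases extend furthest to the right and major urinary proteins and male-biased genes furthest to the left.

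Among called genes in no list, the largest rises included genes best known from nerve and sensory tissue. Kcnt1, a sodium-activated potassium channel, read 11.03, 28.1, 24.3 and 9.63 units in control males and 18786, 16404, 23068 and 16976 units in tamoxifen-fed males, at least 412-fold higher (adjusted p = 4.5e-07), and control females read 14.8, 7.59, 32.2 and 23.6 units. The synaptic vesicle protein Syn2 was at least 221-fold and the odorant-binding protein Obp2a at least 130.1-fold higher. Sfrp5, a Wnt inhibitor, rose by 7.45 ± 0.38 and the prostaglandin receptor Ptger3 was at least 25.4-fold higher. The effect in males did not pass the test of a difference from that in females for Kcnt1 (0.061 ± 0.61, adjusted p = 0.96), Syn2 (0.50 ± 0.61, adjusted p = 0.6) and Sfrp5 (0.36 ± 0.98, adjusted p = 0.83). Over all genes 2130 effects (15.8%) differed between the sexes, among them 30 of 31 female-biased and 28 of 37 male-biased genes.

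The largest falls outside the lists were those of Nuggc, a nuclear GTPase (-8.19 ± 0.55), the potassium channel Kcnk1 (at least 36.9-fold lower), the ferritin receptor Scara5 (-5.35 ± 0.25, and -0.97 at a second probe) and the membrane protein Tmc7 (at least 10.6-fold lower). Nuggc read 31913, 19022, 16859.5 and 16082 units in control males and 125, 25.3, 158 and 44.8 units in tamoxifen-fed males, with no overlap. The steroid 21-hydroxylase gene Cyp21a1 fell (-4.19 ± 0.31) and the vesicular glutamate transporter Slc17a8 (-4.48 ± 0.18), with -1.95 at a second Slc17a8 probe.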

How the data were processed

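Liver RNA of WSB/EiJ mice was hybridised to 1-colour Agilent arrays. The deposited table holds normalized intensities, made by the authors from Agilent Feature Extraction 10.7 output per the submitters' processing notes. Its columns equalled the scanner's processed signal times 1 factor per array (2.81 to 4.67), which set the 75th percentile near 1000 (medians 44.2 to 60.1). Fold changes were computed here from log2 intensity. All 16 sample columns were matched to labels.

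Of 55681 probes, 26762 had a RefSeq name (GRCm38.p6). Probes well above background on every array of at least 1 male group were kept, 17338 of them named, and each gene took the kept probe with the highest mean, giving 13487 genes. Of the other probes of called genes 822 of 910 had the same sign and 20 were called the opposite way. The 4 and 4 male arrays were fitted with limma 3.58.1 in R 4.3.3 (lmFit, eBayes), with Benjamini-Hochberg adjustment over all genes; every adjusted p comes from limma. The comparisons with females used all 16 arrays. Where a group was below background on all arrays, an at-least fold was taken against, per array, the higher of the probe's own and the lowest well-above-background signal. The test was checked on simulated data.

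The members and gene lists were chosen with earlier results of these data known. Genes to name were drawn by rule: the largest rises and falls with no overlap, the same outside all lists, up to 6 per list and direction with up to 3 uncalled members, members of enzyme families, and a fixed set of regulators. Not every gene that met the rule is named. Alternatives were the scanner signal, normexp, quantile and median scaling, other filters and probe rules, slide, replicate number, all arrays, another variance model and leaving out each mouse. In whole liver, fewer cells of a type and less RNA per cell cannot be told apart. Replicates were taken as separate mice; the labels number them without saying so, and p-values measure only the spread between these samples. Protein sequences were not used here. A few list members are counted but not reported by name here.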

Additional observations from a re-analysis of the deposited data

Results flagged for a closer look

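For 28 of the 524 groups of 4 male mice behind the named genes, 1 mouse stood apart from the other 3 by Dixon's gap test on log2 values, and chance alone gives about 1 in 20. Among control males this held for Cbs in control mouse 3 (257419 units, others 302348 to 310457), Cdx4 in control mouse 3 (27.1 units, others 11.5 to 13.1), Cyp3a41b in control mouse 2 (21665 units, others 10779 to 11667), Cyp4a10 in control mouse 4 (10575 units, others 9560.1 to 9709), Cyp4a31 in control mouse 4 (9227 units, others 8262 to 8337) and Dkk4 in control mouse 1 (9178 units, others 2849.8 to 3132). It held too for Fgf21 in control mouse 3 (248 units, others 90.4 to 106), Gdf15 in control mouse 3 (15086 units, others 3607 to 4448), Hsd11b1 in control mouse 3 (264228 units, others 345629 to 361412), Pdk4 in control mouse 3 (948 units, others 538 to 557), Sult2a2 in control mouse 1 (199.7 units, others 44.4 to 50.4) and Sult3a1 in control mouse 1 (94.8 units, others 9.87 to 12.997). Among tamoxifen-fed males this held for Abcb11 in tamoxifen mouse 2 (97474 units, others 234356 to 265482), Aox1 in tamoxifen mouse 3 (11416 units, others 14262 to 14824), Cdx4 in tamoxifen mouse 3 (1164 units, others 1104 to 1108), Cyp2d34 in tamoxifen mouse 2 (32126 units, others 61174 to 69164), Cyp2d40 in tamoxifen mouse 2 (33591 units, others 22526 to 22966) and Cyp3a41b in tamoxifen mouse 3 (210493 units, others 247096 to 255285). It held too for Ephx1 in tamoxifen mouse 2 (93610.1 units, others 62138 to 64821), Gdf15 in tamoxifen mouse 4 (47307 units, others 106588 to 123786), Ghr in tamoxifen mouse 2 (75094 units, others 102432 to 104637), Hnf4a in tamoxifen mouse 2 (463798 units, others 332408 to 346324), Hsd3b7 in tamoxifen mouse 2 (510069 units, others 347607 to 366888) and Mup2 in tamoxifen mouse 1 (284898 units, others 396654 to 406593). Further cases were Pmaip1 in tamoxifen mouse 3 (144 units, others 224 to 236), Rad51b in tamoxifen mouse 3 (4072 units, others 5962 to 6371), Ugt2b1 in tamoxifen mouse 2 (14854 units, others 16558 to 16831) and Xpc in tamoxifen mouse 3 (4358 units, others 4038 to 4079). 

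The effect of tamoxifen in males minus that in females, in log2 units, passed limma's test of the difference at an adjusted p under 0.05 for 131 of the 262 named genes. The direction is males minus females, and a difference can come from the effect in either sex. A higher male effect is therefore not always a rise in males. Of the genes with a higher male effect, G0s2, Fdft1 and Tm7sf2 fell in males, and Prom1, Cyp2c67, Cyp2c68, Mgmt and Esr1 were not called there. Of those with a lower male effect, Cdkn1a and Mdm2 were not called in males. In 65 genes measured on at least 1 array of every group the male effect was the higher: Sult3a1 13.82, Sult2a6 11.79, Sult2a1 11.63, Sult2a4 11.41, Sult2a2 11.34, Acot3 9.81, Cyp3a44 8.60, Cyp4a14 8.21, Cyp2b9 7.69, Prom1 6.32, Cyp2b10 5.61, Cyp3a41b 4.96, Vldlr 4.57, Cyp4a10 4.53, Acot5 4.53, Cyp4a31 4.47, Abcb1a 4.10 and Cyp4a32 3.99. The next were Cyp17a1 3.79, Acot1 3.45, Cyp2c68 3.44, Ly6d 3.41, Cxcl9 3.27, Acot2 3.26, Vnn1 3.24, Cyp39a1 3.22, Cd36 3.05, G0s2 2.94, Cyp2c67 2.90, Cyp2c37 2.89, Cyp3a16 2.85, Prlr 2.78, Trim24 2.74, Rad51b 2.68, Akr1c18 2.67 and Slco1a4 2.58. Smaller differences were Abcb1b 2.46, Ccnd1 2.36, Fmo2 2.36, Fmo4 2.32, Elovl6 2.09, Tox 1.97, Klb 1.86, Gstt3 1.82, Fasn 1.76, Cyp2a4 1.76, Cyp2c39 1.72, F3 1.71, Thrsp 1.69, Fmo1 1.57, Gbp2 1.57, Slc47a1 1.52, Gbp3 1.52 and Fdft1 1.52. Below these came Icosl 1.38, Gstt1 1.34, Mgst3 1.33, Cyp3a11 1.31, Sult1e1 1.26, Tm7sf2 1.10, Papss2 0.97, Mgmt 0.85, Esr1 0.80, Nqo1 0.59 and Cyp2c54 0.54. In 47 genes measured on at least 1 array of every group the male effect was the lower: Cyp4a12b -8.77, Cyp4a12a -8.66, Elovl3 -8.41, Nat8f5 -8.03, Hsd3b5 -6.55, Susd4 -5.95, Lrp2 -5.28, Nat8 -4.71, C6 -4.61, Bcl6 -4.32, Gstp1 -4.27, Cyp21a1 -3.92, Nuggc -3.74, Hsd3b2 -3.64, Aox3 -3.59, C9 -3.58, Nox4 -3.54 and Cyp2d9 -3.28. The next were Asns -3.20, Ces2b -3.14, C8b -2.85, Mup21 -2.79, Abcg2 -2.57, Slc17a8 -2.50, C8a -2.44, Ephx1 -2.26, Il1r1 -2.19, Cdkn1a -2.18, Egfr -2.09, Socs3 -1.82, Mbd1 -1.76, Aox1 -1.75, Ugt2b35 -1.67, Hsd3b3 -1.65, Hsd3b6 -1.45 and Sdf2l1 -1.38. Smaller differences were Ldhb -1.35, Ugt2b1 -1.35, Ugdh -1.25, Acsl4 -1.22, Cyp2d11 -1.18, Kdm5b -0.97, Fmo5 -0.91, Cyp2d12 -0.84, Cyp2d10 -0.68, Acsl1 -0.65 and Mdm2 -0.56. For 19 further genes at least 1 of the 4 groups had no array with the probe well above background, so these fitted values rest on background signal and their sizes and order are not read: A1bg 17.54, Abcd2 6.11, Capn8 -8.15, Cdx4 5.93, Cux2 7.59, Cyp2b13 11.33, Dkk4 -7.47, Hao2 8.40, Kcnk1 -6.35, Myh2 -2.51, Obp2a -1.73, Ptger3 7.66, Scara5 -5.14, Slc22a26 11.51, Slc22a27 9.33, Slc22a29 6.61, Sult2a3 9.70, Sult3a2 11.91 and Tmc7 -6.70. Of all these differences 11 lost their call when single mice were left out: Cyp2c54 for 12 mice (adjusted p up to 0.082), Nuggc for 11 mice (adjusted p up to 0.087), Esr1 for 9 mice (adjusted p up to 0.067), Mdm2 for 9 mice (adjusted p up to 0.067), Mgmt for 8 mice (adjusted p up to 0.069), Nqo1 for 8 mice (adjusted p up to 0.058), Gbp3 for 4 mice (adjusted p up to 0.055), Sult1e1 for 4 mice (adjusted p up to 0.056), Cyp3a11 for 2 mice (adjusted p up to 0.052), Thrsp for 1 mouse (adjusted p = 0.051) and Tox for 1 mouse (adjusted p = 0.051). With the array median 9 lost it, namely Acsl1 (-0.54, adjusted p = 0.15), Cyp2c54 (0.64, adjusted p = 0.11), Cyp2d10 (-0.58, adjusted p = 0.13), Cyp2d12 (-0.74, adjusted p = 0.11), Esr1 (0.91, adjusted p = 0.06), Fmo5 (-0.81, adjusted p = 0.059), Kdm5b (-0.86, adjusted p = 0.059), Mdm2 (-0.45, adjusted p = 0.25) and Nqo1 (0.69, adjusted p = 0.069).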

How the results depend on the processing

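Against 1902 genes that rose and 1827 that fell, the array median gave 1825 and 817 (69.1% of calls higher, against 51.01%) and quantile normalization 2303 and 1292. An adjusted p under 0.01 gave 1192 and 842 (2034 together), slide 1 alone 550 and 274 (824), and slide 2 alone 564 and 327 (891), with 2 mice a group. Each kept probe on its own gave 2726 that rose and 3509 that fell (6235). With no filter on dim probes 1631 rose and 1467 fell of 20284 genes. Leaving out 1 mouse gave 1569 to 1825 that rose, 1215 to 1725 that fell and 2816 to 3448 together, and the fewest falls, 1215, came without tamoxifen mouse 1. The other alternatives kept each count within 1.5 times. The cause was not tested. Counted by gene, no call was opposite except 3 with the median of a gene's probes. For each kept probe on its own, only the probe already used for a gene entered that count. Of the 910 other probes of called genes 20 were called the opposite way. The array median gave 1217 in place of 2139 genes that differed between tamoxifen-fed males and control females, and 1206 in place of 2130 whose effect differed between the sexes. Leaving out 1 mouse gave 1458 to 2234 and 1505 to 2243. Mup19 turned to 0.022 with quantile normalization (adjusted p = 0.86).

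Deviations of same-numbered mice correlated at -0.10, 0.083, 0.14 and 0.23, so the numbers were not taken as pairs. With a replicate block 1757 genes rose and 1544 fell (3301 together). Normexp used the median spot signal in place of the mean signal. The scanner's background limits dim genes, which have only bounds.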

Other observations

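Some markers went against the rest of their lists in male liver. Mpeg1, a macrophage perforin-like protein, fell by 1.26 ± 0.20 on the log2 scale while 13 of the 15 Kupffer cell and macrophage markers rose, and a second Mpeg1 probe gave -1.24. Cd4, a T helper cell receptor, and Cd3e, a chain of the T cell receptor complex, fell (-1.32 ± 0.11) and (-0.64 ± 0.11) while 7 of the 11 T and NK cell markers rose. Mpeg1 averaged 38888 ± 10009 units (SD) in control males.

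Genes of development and of other tissues were among those outside all lists. The homeobox genes Gsc and Cdx4 were below background on every control male array and at least 20.5-fold and 24.8-fold higher in tamoxifen-fed males, where Cdx4 averaged 1120.4 ± 29.2 units against 595 in control females. The costimulatory ligand Icosl rose by 6.14 ± 0.14. Nat8f5, of the N-acetyltransferase 8 family, fell by 4.30 ± 0.19 in males, and in females the difference between tamoxifen and control was 3.73 ± 0.39. The muscle myosin Myh2 was at least 6.92-fold lower.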
